A study of Mus musculus with 12 samples.

Results

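The transcripts described here encode the enzymes that remove superoxide and peroxides in mouse gastrocnemius muscle. The list held 10 genes, Sod1, Sod2, Cat, Gpx1, Gpx3, Gpx4, Prdx1, Prdx3, Prdx5 and Prdx6. They were chosen by name, and a probe was tested where its detection p was under 0.05 on at least 6 of the 12 arrays. Of these genes, 8 had a probe named in the platform annotation, with 14 probes in all, and 11 probes covering all 8 genes were tested, out of 15570 probes and 9034 named genes tested in the series. Prdx5 and Prdx6 had no probe under those names and were not analysed here. Among the tested probes, the dimmer Cat probe was detected on 8 arrays and the dimmer Sod1 probe on 11, and the other 9 were detected on all 12. The 3 probes left out were 1 of Gpx4, detected on 1 array, and 1 each of Sod1 and Prdx1, detected on 0 arrays.

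The study compared male C57BL/6J mice that tolerated a heat test (TOL, 6 mice) with mice that did not (INT, 6 mice), aged 10 to 12 weeks and weighing 22 to 26 g. All 12 carried an implanted temperature transmitter, and all were heated in a chamber set to 39.5 °C for at most 3 h, with exposure stopped early at a core temperature limit. The label rests on peak core temperature in that test, and the muscle was taken 18 to 22 h after it. The study classed a further 6 tested mice as moderately tolerant, and they are not among these 12 arrays. No unheated mice were among these arrays, so a difference that preceded the test and one that followed it cannot be told apart. Titles and source names gave the groups, while the description field called all 12 mice heat intolerant. Each mouse is named below by its label and number, for example TOL 3. RNA was hybridised to Illumina MouseWG-6 v2 bead arrays, 1 per mouse, and 15179 to 16769 probes were detected in TOL mice and 15337 to 17017 in INT mice.

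The TOL group was not uniform. TOL 11 was the array least like the others, with a mean correlation of 0.973 to the rest where the others had at least 0.981. Hspa1a, the inducible heat shock protein of the Hsp70 family, read 5.23, 10.04, 4.68, 8.88, 5.29 and 12.41 in TOL 3, 4, 5, 7, 9 and 11, against 4.64 to 6.26 in INT mice. Dnajb1, its Hsp40 partner, read 6.41, 10.73, 6.49, 10.25, 6.31 and 9.77 in the same TOL mice, against 6.27 to 8.09 in INT mice. TOL 4, 7 and 11 were thus high for both genes and the other TOL mice lay within or next to the INT range. The INT mice also varied for Dnajb1, which read 8.09 in INT 7 and 7.57 in INT 11, where the other INT mice ran from 6.27 to 6.74.

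Superoxide arises where electrons leak to oxygen, in muscle mainly at the respiratory chain and at membrane oxidases. Superoxide dismutases turn it into hydrogen peroxide, which catalase splits into water and oxygen. The glutathione peroxidases and the peroxiredoxins reduce peroxides at the cost of glutathione or thioredoxin. The enzymes are split between compartments: Sod2 and Prdx3 work in the mitochondrial matrix, Cat in peroxisomes, Sod1, Gpx1 and Prdx1 chiefly in the cytosol, Gpx4 on membrane lipid peroxides, and Gpx3 is secreted.

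Differences between the labels were small and none of the 11 probes passed limma's test at an adjusted p of 0.05, a threshold that 0.829% of all tested probes and 0.542% of all tested genes passed. With the unadjusted limma p held to 0.05, the cut-off of the study's methods, 1 of the 8 genes (Sod2) was higher in TOL mice, where 8.41% of all tested genes passed in either direction and 3.89% passed with the higher mean in TOL. By probe, 2 of 11 passed (Sod2 and a dimmer Gpx4 probe), where 9.91% of all tested probes passed in either direction and 4.61% with the higher mean in TOL. After quantile normalization the TOL mean was the higher one in 7 of the 8 genes and the lower one in Prdx1. Of all tested genes, 48.9% then had the higher mean in TOL. With median scaling of the arrays the TOL mean was the higher one in 3 of the 8 genes, a count to which that share does not apply. The median difference, TOL minus INT, was 0.071 on the log2 scale over the 8 genes and -0.0034 over all tested genes. With that scaling in place of quantile normalization, the median of the 8 genes was -0.036 and that of all genes -0.079, and Sod1, Gpx1, Gpx4 and Prdx3 changed sign. All levels below are normalised log2 signals of 1 probe, comparable between mice and not between genes, and all differences are TOL minus INT. The tissue was bulk muscle, in which fewer cells of a type and less RNA per cell cannot be told apart.

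**Figure D1:**
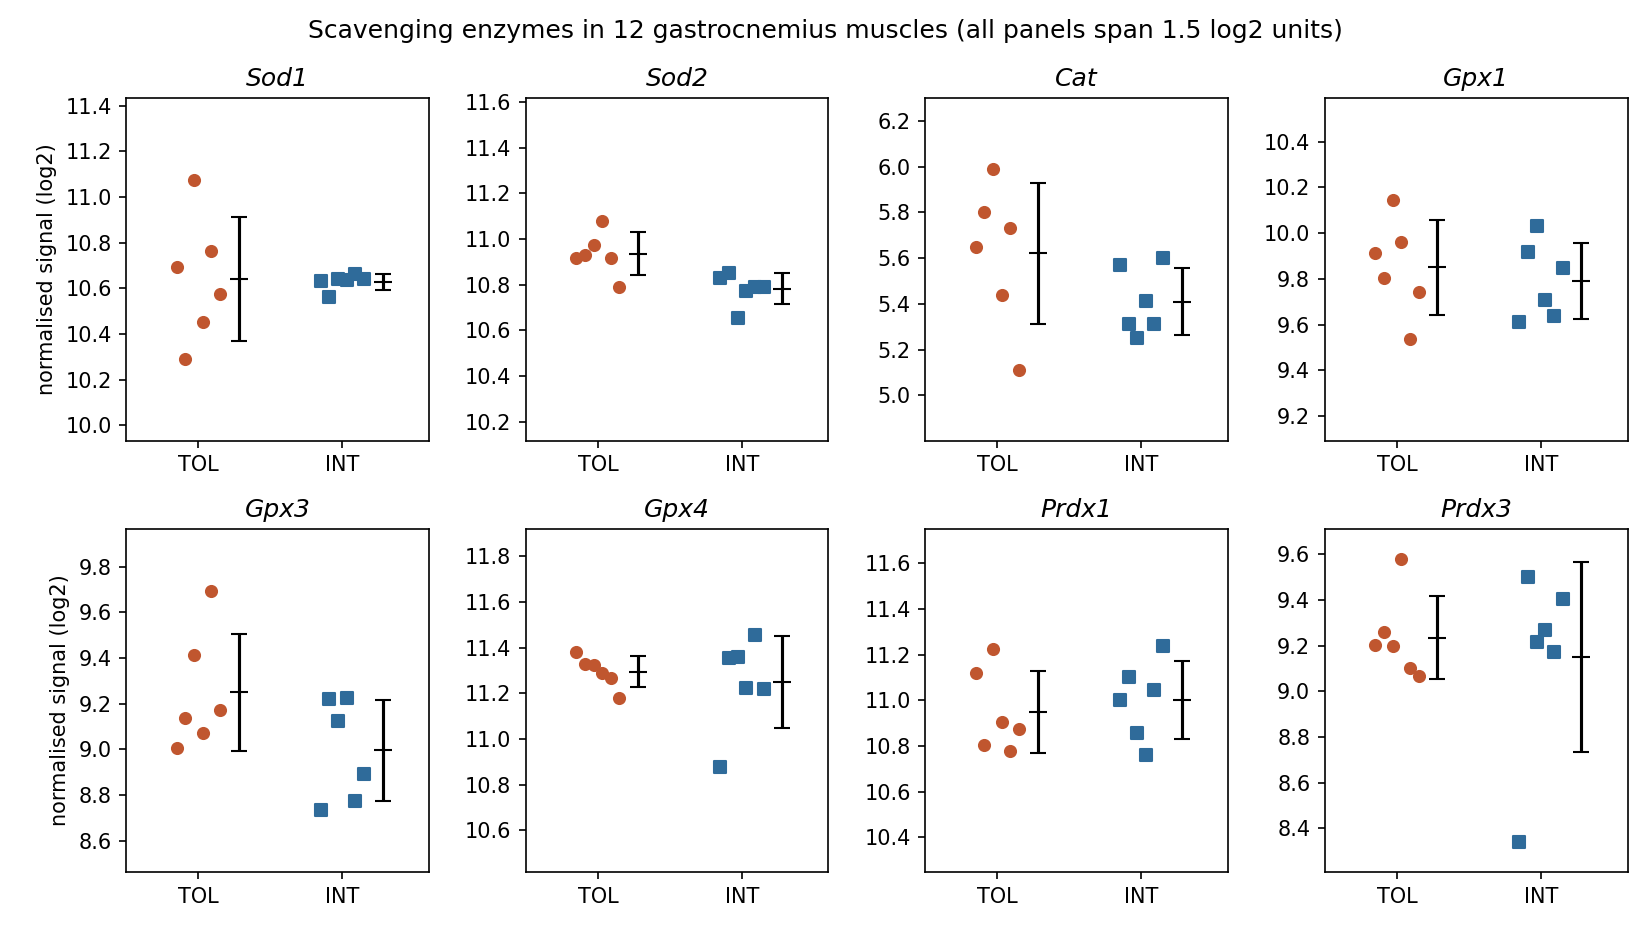
Normalised log2 signal of the 8 scavenging enzymes in each mouse, TOL (circles, left) and INT (squares, right), with the mean and SD of each group of 6 beside the points. For genes with several probes the brighter one is drawn; each panel spans the same height. The INT values of Sod1 sit close together while the TOL values spread, 5 of 6 TOL mice exceed every INT mouse for Sod2, and 1 INT mouse lies far below the others for Prdx3.

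Sod2, the manganese dismutase of the mitochondrial matrix, had the smallest p of the 8 genes. Its level was 10.92 in TOL 3, 10.93 in TOL 4, 10.97 in TOL 5, 11.08 in TOL 7, 10.92 in TOL 9 and 10.79 in TOL 11, against 10.83 in INT 3, 10.85 in INT 4, 10.65 in INT 5, 10.77 in INT 7, 10.79 in INT 9 and 10.79 in INT 11. Thus 5 of 6 TOL mice lay above every INT mouse, and TOL 11 fell within the INT range. The difference was 0.15 ± 0.071 (SE, n = 6 each), a fold of 1.11 with a 95% interval of 1.00 to 1.23 (limma p = 0.0448, adjusted p = 0.493, exact two-sided permutation test p = 0.0108). Sod2 was also among the steadiest transcripts within labels, with a pooled SD of 0.082, smaller than in all but 1.75% of tested genes. The unadjusted limma p exceeded 0.05 when any 1 of 9 mice was left out (all but TOL 11, INT 3 and INT 4), at differences of 0.12 to 0.16. Under median scaling the difference was 0.023 (adjusted p = 0.941), and with the mouse number as a block the unadjusted limma p was 0.0822. Before normalization its deposited signals ran from 1745 to 2190 in TOL mice and from 1818 to 2058 in INT mice, so that the groups overlapped fully.

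Sod1, the copper and zinc dismutase of the cytosol, showed no difference in mean but a different spread. Its level was 10.69 in TOL 3, 10.29 in TOL 4, 11.08 in TOL 5, 10.45 in TOL 7, 10.76 in TOL 9 and 10.58 in TOL 11, against 10.63, 10.56, 10.64, 10.64, 10.66 and 10.64 in INT 3, 4, 5, 7, 9 and 11. The INT mice thus lay inside the TOL range, with 3 TOL mice above and 2 below all of them. The SD was 0.27 in TOL mice and 0.035 in INT mice, a ratio of 7.74, and 0.0996% of all tested genes had a larger ratio, where the median ratio was 1.08. The ratio was singled out after the values were seen and is given with no test. The mean difference was 0.012 ± 0.11 (SE, n = 6 each, limma p = 0.908, exact permutation p = 0.918), with a 95% interval of -0.21 to 0.24. A dimmer Sod1 probe, detected on all 6 TOL arrays and 5 of 6 INT arrays, ran from 4.43 to 4.72 in TOL mice (median 4.61) and from 4.28 to 4.93 in INT mice (median 4.76), and the correlation of the probes over the 12 mice was 0.021. On this probe the wider spread was on the other side, with an SD of 0.11 in TOL mice and 0.23 in INT mice. The probe was near the detection limit, with deposited signals of 75.9 to 82 in TOL mice and 75.1 to 86 in INT mice. The median signal of an array was 71.5 to 74 in TOL mice and 72.9 to 73.8 in INT mice. The platform annotation ties the probe to another sequence record than the brighter one.

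The dismutases differed in how they varied, Sod1 spreading in TOL mice on its brighter probe and Sod2 steady in both labels. The 250 bases before their annotated start sites are shown for that reason. They were read from RefSeq on GRCm38.p6, at chr16:90220512-90220761, plus strand, and at chr17:13007589-13007838, plus strand. Capitals mark the core of the antioxidant response element, TGACNNNGC, the site of the factor Nrf2, and the GC box GGGCGG, bound by Sp1 family factors, on either strand.
Sod1: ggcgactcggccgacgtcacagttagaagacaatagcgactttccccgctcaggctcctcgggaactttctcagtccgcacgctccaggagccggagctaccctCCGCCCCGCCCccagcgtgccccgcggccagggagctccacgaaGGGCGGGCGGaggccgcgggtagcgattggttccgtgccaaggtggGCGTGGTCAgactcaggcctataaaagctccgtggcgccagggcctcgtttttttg
Sod2: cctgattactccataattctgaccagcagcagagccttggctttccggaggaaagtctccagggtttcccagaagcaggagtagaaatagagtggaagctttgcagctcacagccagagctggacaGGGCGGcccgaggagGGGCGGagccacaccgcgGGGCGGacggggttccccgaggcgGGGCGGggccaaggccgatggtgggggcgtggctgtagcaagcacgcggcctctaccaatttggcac
Sod1 held 4 GC boxes and 1 antioxidant response core, written here as GCGTGGTCA on the strand shown and starting 56 bases before the start site, and also a TATA box. Sod2 held 4 GC boxes, with no antioxidant response core and no TATA box. Of 32851 mouse windows of that length in the RefSeq table, 10.2% held the antioxidant response core, 32.7% a GC box and 12.4% a TATA box. A match states that these letters are present, not that a factor binds there. A link between these letters and the spread was not tested.

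**Figure D2:**
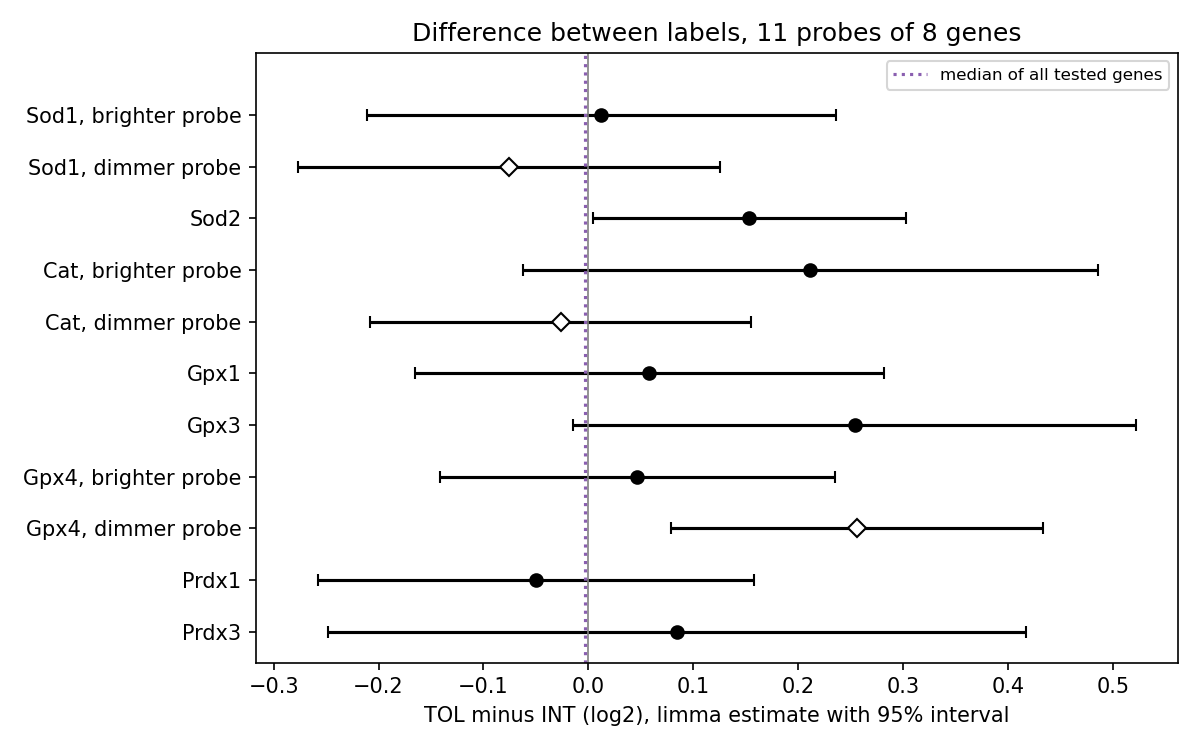
Difference between labels (TOL minus INT, log2) for each of the 11 tested probes, with its 95% interval from limma; filled circles are the probes used for the gene value, open diamonds the dimmer probes, and the dotted line is the median of all tested genes. The intervals of Sod2 and of the dimmer Gpx4 probe exclude 0, and the other 9 include it.

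Cat encodes catalase, the peroxisomal enzyme that splits hydrogen peroxide. Its brighter probe read 5.65, 5.80, 5.99, 5.44, 5.73 and 5.11 in TOL 3, 4, 5, 7, 9 and 11, against 5.57, 5.31, 5.25, 5.41, 5.31 and 5.60 in INT 3, 4, 5, 7, 9 and 11. In 4 of 6 TOL mice it exceeded every INT mouse, but TOL 11 had the lowest value of all 12. The difference of 0.21 ± 0.13 (SE, n = 6 each) did not pass (limma p = 0.122, adjusted p = 0.638, exact permutation p = 0.158). Without TOL 11, the array that stood apart, the difference was 0.31 (adjusted p = 0.375), with an unadjusted limma p of 0.0115, and without TOL 5 it was 0.14 (adjusted p = 0.741). It was between 0.093 and 0.13 under median scaling, under an offset of 50, without background correction or as the mean of both Cat probes. A second Cat probe, near the detection limit, ran from 4.28 to 4.63 in TOL mice (median 4.34) and from 4.22 to 4.65 in INT mice (median 4.47), a difference of -0.026 (limma p = 0.763, exact permutation p = 0.799). The probes correlated at r = 0.29 over the 12 mice.

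Gpx3, the secreted enzyme found in plasma, ran from 9.01 to 9.69 in TOL mice (median 9.15) and from 8.73 to 9.23 in INT mice (median 9.01). All 6 TOL mice were above the INT mean and 2 of them, TOL 5 and TOL 9, were above every INT mouse. The difference of 0.25 ± 0.13 (SE, n = 6 each), a fold of 1.19 with a 95% interval of 0.990 to 1.44, did not pass (limma p = 0.0620, adjusted p = 0.541, exact permutation p = 0.0974). Leaving out TOL 3, TOL 7, INT 4 or INT 7 brought the unadjusted limma p under 0.05, at differences of 0.30, 0.29, 0.30 and 0.30, with adjusted p of 0.440 to 0.507. Without TOL 9 the difference was 0.17 (adjusted p = 0.777), and with median scaling it was 0.15 (adjusted p = 0.706). Gpx1, the cytosolic and mitochondrial selenoenzyme, ran from 9.54 to 10.14 in TOL mice (median 9.86) and from 9.61 to 10.03 in INT mice (median 9.78), almost the same range. Its difference was 0.058 ± 0.11 (SE, n = 6 each, limma p = 0.590, exact permutation p = 0.589), with a 95% interval of -0.17 to 0.28.

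Gpx4, which reduces lipid hydroperoxides inside membranes and guards cells against ferroptosis, gave a different answer on each of its probes. The brighter probe (ILMN_2684855) read 11.38, 11.33, 11.32, 11.29, 11.27 and 11.18 in TOL 3, 4, 5, 7, 9 and 11, against 10.88, 11.35, 11.36, 11.22, 11.46 and 11.22 in INT 3, 4, 5, 7, 9 and 11. The TOL mice lay within the INT range, which INT 3 stretched downwards. Its difference was 0.047 ± 0.089 (SE, n = 6 each, limma p = 0.609, exact permutation p = 0.697) and became -0.027 without INT 3.

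The dimmer Gpx4 probe (ILMN_3100812), also detected on all 12 arrays, separated the labels. It read 8.85, 8.86, 8.71, 8.65, 8.70 and 8.70 in TOL 3, 4, 5, 7, 9 and 11, against 8.36, 8.43, 8.57, 8.37, 8.63 and 8.58 in INT 3, 4, 5, 7, 9 and 11. Every TOL mouse was above every INT mouse, a pattern seen in 0.276% of all tested probes (1.09% with the labels apart in either direction), although TOL 7 and INT 9 were almost level. The difference was 0.26 ± 0.084 (SE, n = 6 each), a fold of 1.19 with a 95% interval of 1.06 to 1.35 (limma p = 0.00738, exact permutation p = 0.00216). It did not pass after adjustment over all probes (adjusted p = 0.273), and the permutation value is the smallest that 6 against 6 mice can give. Leaving out each mouse in turn kept the difference between 0.23 and 0.28 and the unadjusted limma p at 0.0207 or less, while median scaling gave 0.14 (adjusted p = 0.628). Its deposited signals before normalization were 396 to 533 in TOL mice and 387 to 471 in INT mice, which overlap.

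The Gpx4 probes correlated at r = 0.51 over the 12 mice, and their gap moved with the label. The dimmer probe minus the brighter one averaged -2.55 ± 0.070 in TOL mice and -2.76 ± 0.15 in INT mice (SD, n = 6 each), a difference of 0.21 (exact two-sided permutation p = 0.0195). This comparison was added after the probes' values were seen and is 1 of 3 such probe pairs, of which Sod1 gave an exact permutation p = 0.565 and Cat 0.106. The platform annotation assigns both probes to the same RefSeq transcript. RefSeq lists 4 start sites with a promoter window for Gpx4, and whether either probe also meets other transcripts was not given in the sources used here. The plot of the Gpx4 probes against each other shows the TOL mice above the INT mice at like readings of the brighter probe.

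**Figure D3:**
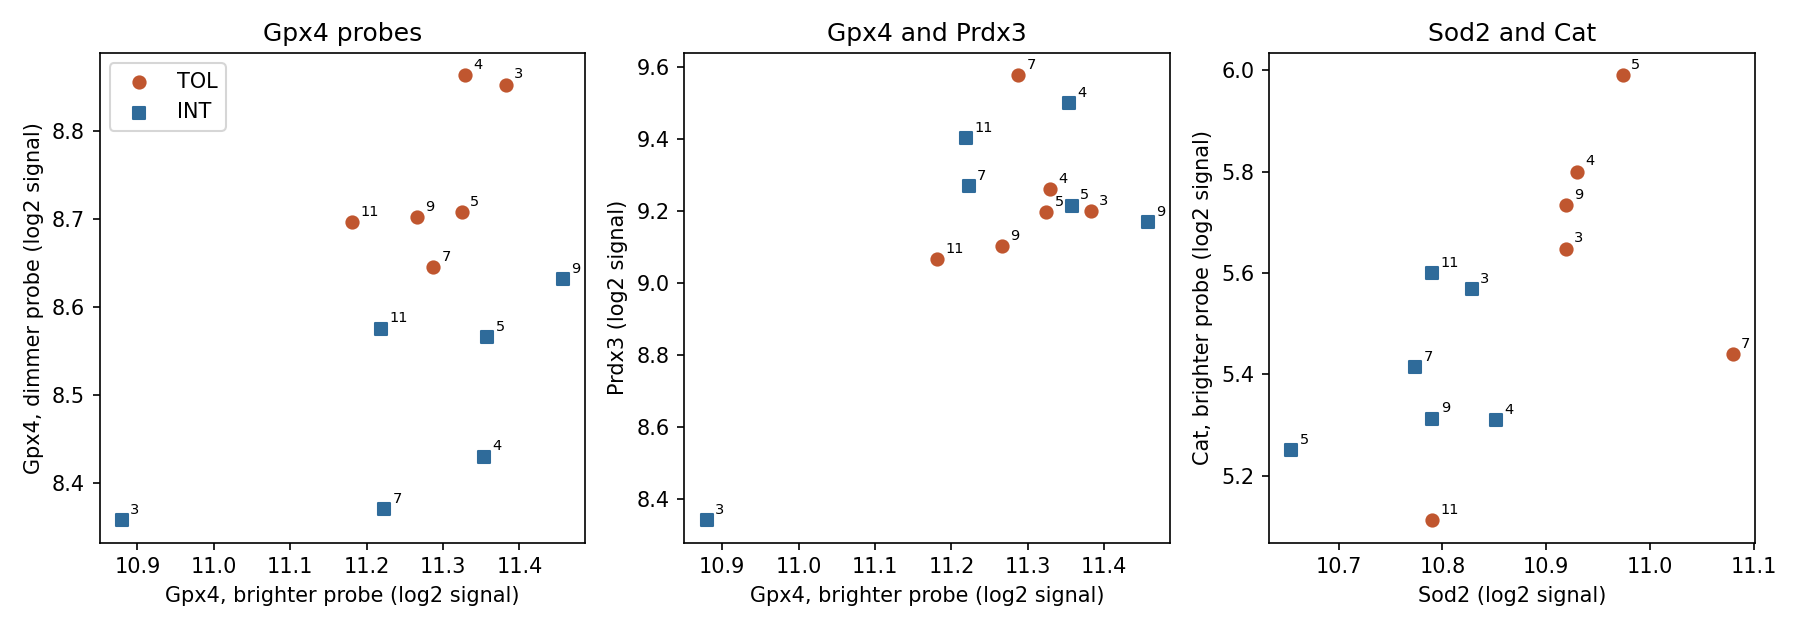
Each point is 1 mouse (number beside it), TOL as circles and INT as squares, on normalised log2 scales: the dimmer against the brighter Gpx4 probe (left), Prdx3 against Gpx4 (middle) and Cat against Sod2 (right). INT 3 stands alone at the lower left of the middle panel, and TOL 7 stands off to the right in the right panel.

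The peroxiredoxins are thiol peroxidases recycled by thioredoxin. Prdx1, the cytosolic form, ran from 10.78 to 11.22 in TOL mice (median 10.89) and from 10.76 to 11.24 in INT mice (median 11.02). It was the 1 gene with the lower mean in TOL, at -0.049 ± 0.099 (SE, n = 6 each, limma p = 0.622, exact permutation p = 0.626), with a 95% interval of -0.26 to 0.16, and its groups covered the same range.

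The window before the Prdx1 start site (chr4:116685349-116685598, plus strand, GRCm38.p6, RefSeq) is shown because Prdx1 and Sod1 were the members of the 9 with a window that held the antioxidant response core; capitals mark it and the GC box as above.
Prdx1: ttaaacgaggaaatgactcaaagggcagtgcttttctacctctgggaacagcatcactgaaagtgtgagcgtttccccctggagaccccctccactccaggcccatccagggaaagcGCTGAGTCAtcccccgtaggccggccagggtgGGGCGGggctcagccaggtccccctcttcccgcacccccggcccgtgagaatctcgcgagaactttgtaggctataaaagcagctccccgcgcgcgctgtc
The core, GCTGAGTCA on this strand, starts 133 bases before the start site and shares its letters with 1 of 2 AP-1 sites (TGAGTCA, either strand), an element that 4.46% of all windows held. GC boxes were present in 8 of the 9 genes, all but Gpx1. Sod1 and Prdx1, the genes with the antioxidant response core, correlated over the 12 mice at r = 0.47 (rho = 0.27), and at -0.054 without TOL 4 and TOL 5.

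Prdx3, the mitochondrial peroxiredoxin, varied most of the 8 genes within labels (pooled SD 0.32, larger than in 92.1% of tested genes), through 1 animal. It read 9.20, 9.26, 9.20, 9.58, 9.10 and 9.07 in TOL 3, 4, 5, 7, 9 and 11, against 8.34, 9.50, 9.22, 9.27, 9.17 and 9.40 in INT 3, 4, 5, 7, 9 and 11. INT 3 lay 0.83 below the next INT mouse and below all TOL mice, and its deposited signal was 383 where the other 11 arrays had 539 to 821. The difference was 0.084 ± 0.16 (SE, n = 6 each, limma p = 0.599, exact permutation p = 0.775) and was -0.077 without INT 3.

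Of the 28 pairs of genes, 23 had a positive and 5 a negative Pearson's r, with a median of 0.23 and a range of -0.34 to 0.74, where each enzyme's median r with the 9033 other genes lay between -0.048 and 0.041. None of the 28 passed Benjamini-Hochberg adjustment (permutation test with 100000 resamples, smallest adjusted p = 0.766), and 1 had an unadjusted p under 0.05. That pair was Gpx4 with Prdx3 (r = 0.74, p = 0.0396, Spearman's rho = 0.23, p = 0.473), and it rested on INT 3, without which r was 0.0077. Sod2 with Cat came next, at r = 0.57 (p = 0.0547) and rho = 0.67 (p = 0.0191, adjusted 0.535). For that pair r was 0.81 without INT 5 and TOL 7, the mice farthest from the Sod2 median, and 0.40 once each label's mean was removed. The dismutases had an r of -0.0084 with each other (p = 0.980), and the most negative pair was Gpx3 with Prdx1 (r = -0.34, p = 0.287). Arrays share normalization, so that r between any pair also carries what the arrays have in common.

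**Figure D4:**
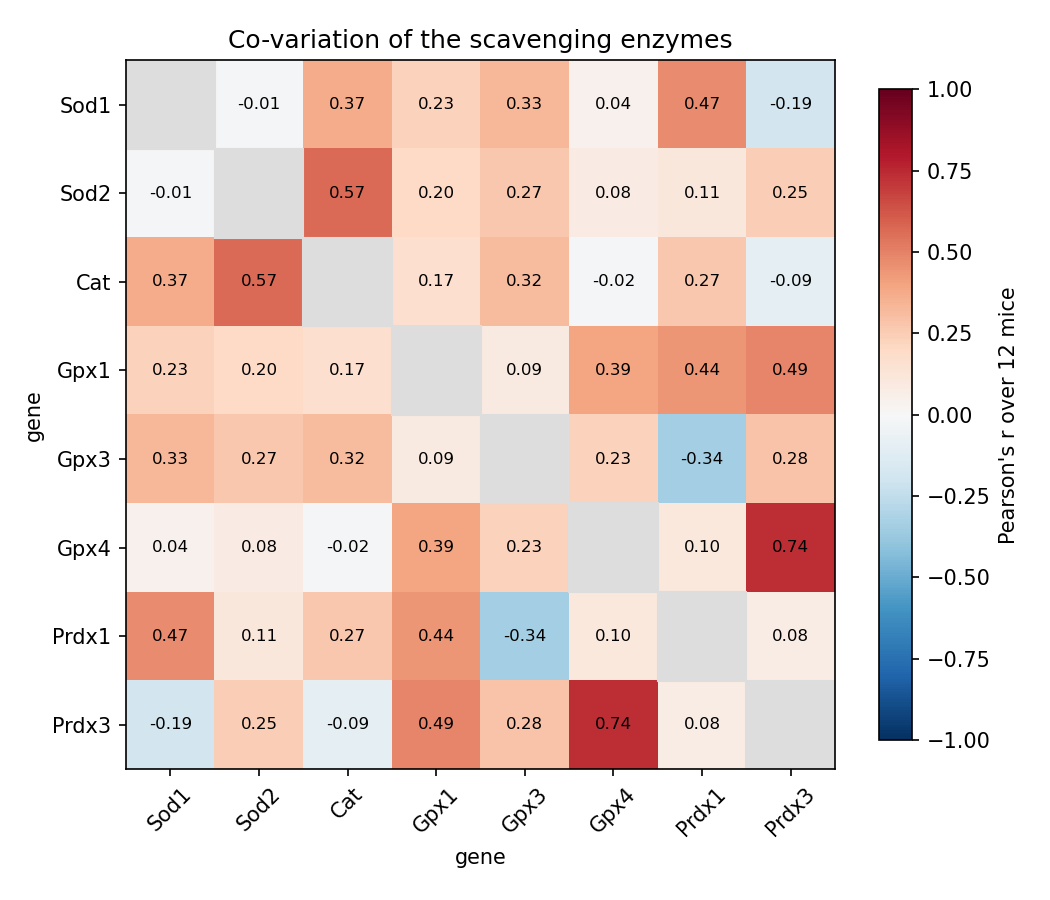
Pearson's r between each pair of the 8 genes over 12 mice, from -1 (blue) to 1 (red), with the value in each cell and the diagonal in grey. Gpx4 with Prdx3 has the highest value, 0.74, which rests on INT 3, and most other cells are pale.

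The transcripts most like Sod2 over the 12 mice were Tm2d2, Ube2g1 and Emc9, with r of 0.85, 0.84 and 0.84, and 0.80, 0.50 and 0.77 without the mice farthest from the Sod2 median. Those most like Prdx3 were Rnf13, Ndufc2, a subunit of respiratory complex I, and Lypla1, with r of 0.92, 0.91 and 0.91, and 0.43, 0.79 and 0.60 without the farthest mice. These were the top 3 of 9033 genes for each member and are a description only.

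Genes that supply, charge or oppose these enzymes were read from 8 lists, and no gene of any list passed at an adjusted p of 0.05. Among 7 other scavengers tested, 3 had the higher mean in TOL and 4 the lower (median -0.017, and 2 against 5 with median scaling). The exception in size was Ccs, the chaperone that loads copper into Sod1, which ran from 7.37 to 7.96 in TOL mice (median 7.50) and from 7.16 to 7.41 in INT mice (median 7.34). It was higher by 0.25 ± 0.10 (SE, n = 6 each, limma p = 0.0280, adjusted p = 0.429, exact permutation p = 0.00866), and the limma p exceeded 0.05 without TOL 5, TOL 9 or INT 9, when the difference was 0.23, 0.18 and 0.22. It was 0.13 with median scaling (adjusted p = 0.697), and with the mouse number as a block the limma p was 0.0523. Sod3, the extracellular dismutase, and Prdx2 and Prdx4 differed by -0.017, -0.049 and -0.023.

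In the thioredoxin and glutaredoxin list, which recycles the peroxiredoxins, 10 of 12 tested genes (7 of 12 with median scaling) had the higher mean in TOL and 0 had an unadjusted p of 0.05 or less on the probe used for the gene (median 0.098). Other probes of 2 of these glutaredoxin genes did, Glrx2 at 0.25 (adjusted p = 0.403, unadjusted limma p of 0.0230) and Glrx at 0.26 (adjusted p = 0.466, unadjusted limma p of 0.0367), where the gene's own values were 0.14 and 0.094. That other Glrx2 probe was dim, at a mean level of 4.93. The smallest p was that of Glrx3, a glutaredoxin that handles iron-sulfur clusters, at 0.15 ± 0.11 (SE, n = 6 each, limma p = 0.171, exact permutation p = 0.154), and Srxn1, the sulfiredoxin that repairs overoxidised peroxiredoxin, differed by 0.13 ± 0.23 (exact permutation p = 0.753). The Glrx3 difference was 0.10 without INT 7, 0.23 without INT 3 (adjusted p = 0.446, unadjusted limma p of 0.0312) and 0.065 with median scaling. In the glutathione list all 4 tested genes had the higher mean in TOL (median 0.098), and 2 of 4 with median scaling. Gss, glutathione synthetase, was dim and ran from 4.31 to 4.72 in TOL mice (median 4.46) and from 4.22 to 4.46 in INT mice (median 4.28), a difference of 0.19 ± 0.077 (SE, n = 6 each, limma p = 0.0239, adjusted p = 0.405, exact permutation p = 0.0411). Its limma p exceeded 0.05 without TOL 5, TOL 11 or INT 7, when the difference was 0.15, 0.15 and 0.17, and with array weights (0.15). Without background correction it was 0.061, at an offset of 50 it was 0.075, and an RMA-type background gave 0.46.

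NADPH is drawn on by both recycling systems. In the list of enzymes that make it and of the pentose phosphate pathway, which also held Taldo1 and Tkt of its branch that makes none, 4 of 7 had the higher mean in TOL and 3 the lower (median 0.013, and 2 against 5 with median scaling). Nnt, the mitochondrial transhydrogenase, in which C57BL/6J mice are known to carry a deletion, was dim and ran from 4.23 to 4.68 in TOL mice (median 4.38) and from 4.53 to 4.85 in INT mice (median 4.61). Its difference was -0.24 ± 0.083 (SE, n = 6 each, limma p = 0.0110, adjusted p = 0.321, exact permutation p = 0.0238). The size of the difference moved with the background correction, at -0.074 with none, -0.095 with an offset of 50 and -0.52 with an RMA-type background. Among the sources of superoxide and peroxide, 4 of 7 had the higher mean and 3 the lower (median 0.051, and 3 against 4 with median scaling), and Hsd17b4, an enzyme of peroxisomal fatty acid oxidation, had the smallest p. Hsd17b4 ran from 8.26 to 8.81 in TOL mice (median 8.68) and from 8.61 to 9.13 in INT mice (median 9.02), a difference of -0.34 ± 0.11 (SE, n = 6 each, limma p = 0.00662, adjusted p = 0.256, exact permutation p = 0.0130), with a limma p of 0.0176 or less whichever mouse was left out.

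The glutathione peroxidases depend on selenoprotein synthesis genes for selenocysteine. The list of these genes, which also held the selenoproteins Selenow and Selenop, was split 4 higher to 3 lower (median 0.0083, and 2 to 5 with median scaling). Selenow and Selenop were among the lower genes, at -0.075 and -0.073. The smallest p was that of Secisbp2, the factor that reads the selenocysteine element, at 0.12 ± 0.12 (SE, n = 6 each, limma p = 0.307, exact permutation p = 0.342). Its difference was 0.044 without INT 11, 0.20 without INT 9 and 0.039 with median scaling. Peroxisome genes were split 5 to 5 (median -0.0080), or 2 higher to 8 lower with median scaling. Pex19, the import receptor for peroxisomal membrane proteins, was higher by 0.20 ± 0.085 on its brighter probe (SE, n = 6 each, limma p = 0.0337, adjusted p = 0.458, exact permutation p = 0.0173), running from 9.18 to 9.53 in TOL mice (median 9.37) and from 9.10 to 9.30 in INT mice (median 9.15). A second Pex19 probe, dim at a mean level of 4.64, gave 0.20 as well (adjusted p = 0.394). The brighter probe's limma p exceeded 0.05 when any 1 of 7 mice was left out (TOL 3, 7 and 11 and INT 3, 4, 5 and 7), with no detection filter and with the mouse number as a block, and with median scaling the difference was 0.075 (adjusted p = 0.787). Mitochondrial genes had the higher mean in TOL in 10 of 14 (median 0.041), or 3 of 14 with median scaling, and the smallest p was that of Vdac1, the outer membrane channel, at 0.12 ± 0.067 (SE, n = 6 each, limma p = 0.0887, exact permutation p = 0.0628), or 0.023 with median scaling.

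**Figure D5:**
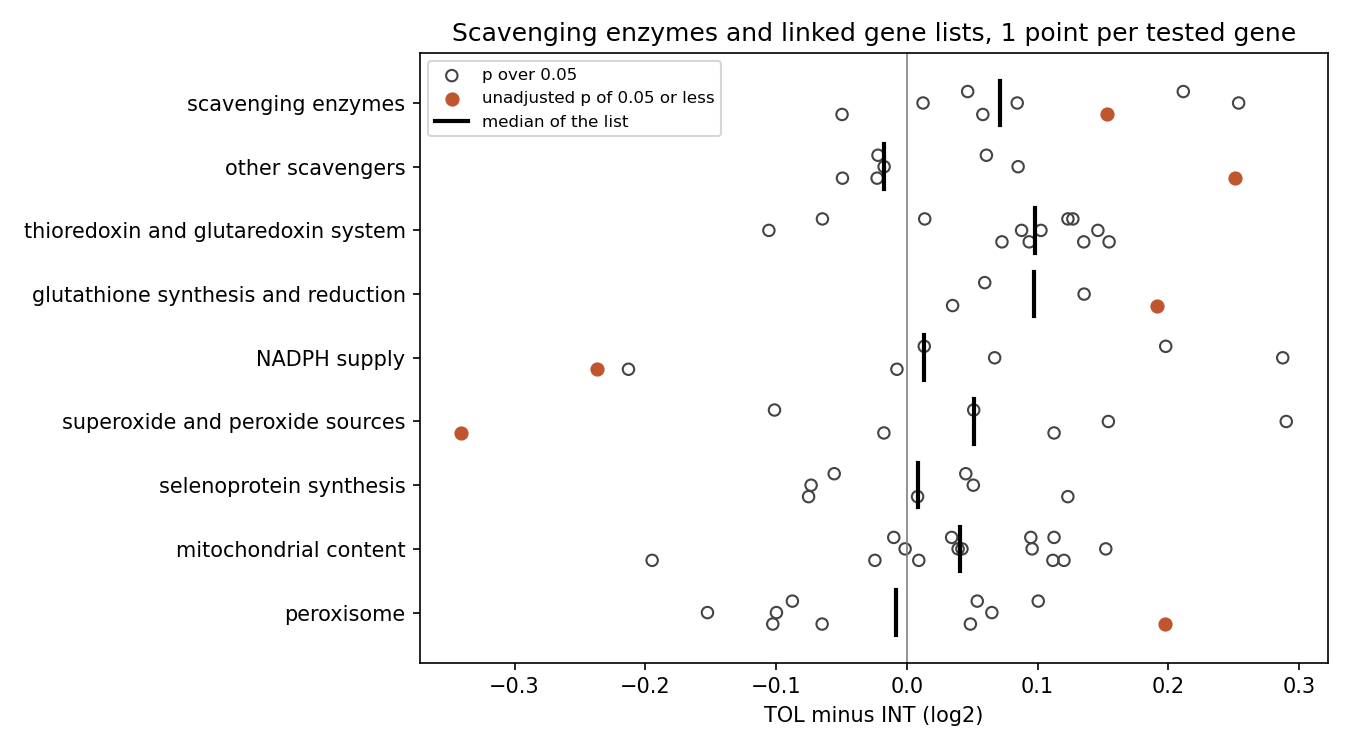
Difference between labels (TOL minus INT, log2) of each tested gene in the scavenging enzymes and in 8 linked lists, 1 point per gene; filled points have an unadjusted p of 0.05 or less and the black bar is the list's median. The medians lie between -0.017 and 0.098 after quantile normalization. With median scaling they were lower in every list, as was the median of all tested genes. The filled points are Sod2, Ccs, Gss, Nnt, Hsd17b4 and Pex19.

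All 10 skeletal muscle markers were detected often enough to be tested, with a mean level of 12.62 to 12.75 in TOL mice and 12.55 to 12.68 in INT mice. Of these markers, 4 had the higher mean in TOL and 6 the lower (3 and 7 with median scaling). A limma p of 0.05 or less was reached by 2 of them, both higher in TOL, and an adjusted p under 0.05 by 0. Slow-twitch fibre genes had the lower mean in TOL in 7 of 7 under either scaling (median -0.76, 6 with p of 0.05 or less and 0 with an adjusted p under 0.05), and their mean level ran from 7.60 to 9.63 in TOL mice and from 8.85 to 10.70 in INT mice. Over the 12 mice the r of the scavenging enzymes with that level ran from -0.41 (Gpx1, p = 0.187, rho = -0.42, p = 0.177) to 0.32 (Gpx4). It was -0.11 for Cat and -0.16 for Sod1. INT 9 and TOL 11 lay farthest from the median of that level. Without them r was -0.59 for Gpx1, -0.54 for Cat, -0.45 for Sod1, -0.37 for Prdx1 and -0.17 for Sod2. It was then -0.041 for Gpx4, 0.13 for Gpx3 and 0.26 for Prdx3.

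Each gene was also set against 7 list levels and the number of detected probes, 64 correlations in all, of which 0 passed adjustment (smallest adjusted p = 0.291) and 4 had p under 0.05. Gpx3 moved with the erythrocyte genes Hba-a1 and Alas2 (r = 0.75, permutation p = 0.00455, rho = 0.73, p = 0.00891, and r = 0.57 without INT 4 and TOL 9), whose mean level was 7.11 to 8.24 in TOL mice and 6.72 to 7.96 in INT mice. Of the 8 erythrocyte markers, 2 were tested, both with the higher mean in TOL, 2 (Hbb-b2 and Slc4a1) were not detected often enough and 4 had no named probe. Each mouse was then left out in turn, a step added after seeing the data. Without TOL 5 the r of Gpx3 with the erythrocyte level was 0.88 (adjusted p = 0.0128). No correlation passed when any other mouse was left out. The adjustment covers the 64 correlations of 1 run and not the choice among runs. The part of blood in the Gpx3 difference was not tested. Prdx1 and Sod1 moved against the mitochondrial level (r = -0.66, p = 0.0222, rho = -0.59, p = 0.0463 for Prdx1, and r = -0.58, p = 0.0442, rho = -0.44, p = 0.155 for Sod1), and r was -0.45 and -0.59 without TOL 5 and TOL 9. Prdx3 moved with the number of detected probes (r = 0.59, p = 0.0337, rho = 0.64, p = 0.0284, and r = 0.25 without INT 3 and TOL 11).

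Markers of other cells showed no gene past an adjusted p of 0.05. The higher mean was in TOL for 2 of 4 adipocyte, 6 of 7 macrophage, 4 of 7 endothelial, 5 of 6 fibroblast and tendon, 3 of 3 Schwann cell and 1 of 1 neutrophil genes tested, and for 1 of 5 of smooth muscle and pericyte. With median scaling these counts were 2 of 4, 4 of 7, 1 of 7, 2 of 6, 3 of 3, 1 of 1 and 1 of 5, in the same order. For smooth muscle and pericyte the mean level was 6.07 to 6.57 in TOL mice and 6.38 to 6.84 in INT mice, with Rgs5 and Acta2 lower in TOL at a limma p of 0.05 or less, and its part in the values above was not tested. Among the fibroblast and tendon genes, 1 was higher in TOL at a limma p of 0.05 or less.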

How the data were processed

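Gastrocnemius RNA of 12 mice, 6 TOL and 6 INT, was profiled on Illumina MouseWG-6 v2 arrays, 1 array per mouse. Per the labels the arrays were summarised in GenomeStudio (version not given in the sources used here). The authors deposited, for each of 45281 probes, a bead signal intensity that was neither background corrected nor normalised, with a detection p-value, and a second table of normalised intensity values with a floor of 16. The study's methods used RMA normalization, one-way ANOVA and a p cut-off of 0.05. Probes were named from the platform annotation table, in which 34885 had 1 symbol, 18 had several and 10378 had none.

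The deposited intensities were background corrected, quantile normalised and log2 transformed with neqc in limma 3.58.1 (R 4.3.3; offset 16, background estimated from the detection p-values). Probes with detection p under 0.05 on at least 6 arrays were tested with lmFit and eBayes with an intensity trend, TOL minus INT, and p-values were adjusted over all 15570 by Benjamini-Hochberg. A gene is represented by its brightest tested probe. Single genes were also compared by exact two-sided permutation (924 arrangements), and correlations by 100000 permutations (Python 3.11.15, numpy 2.4.6, scipy 1.17.1). The fit was tested on simulated data.

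The 10 genes, the linked lists and the markers were chosen with earlier results of these data known. Named were all members; from each linked list the genes with p of 0.05 or less, or else the smallest p; and the 3 genes most correlated with the member of largest SD and with that of smallest p. The alternatives were no background correction, an RMA-type background, an offset of 50, median scaling, the deposited normalised table, no detection filter, detection on all 12 arrays, array weights, the mouse number as a block, the methods' t-test, the mean of all probes of a gene, and leaving out each mouse. Leaving out mice in the correlations with lists was added after seeing the data. P-values measure the spread between these mice, and the number of arrays limits precision. The chip position was given for 1 array alone, so chips could not be examined as batches. Motifs were sought on both strands in the 250 bases before each RefSeq start site (GRCm38.p6), present for 9 of the 10 genes.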

Additional observations from a re-analysis of the deposited data

Results flagged for a closer look

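In 38 groups of 6 mice (19 probes or genes, each in TOL and in INT), 3 single values lay so far from the rest that the gap exceeded Dixon's critical value for 6. Chance gives about 1 in 20 such groups. Prdx3 read 8.34 in INT 3, where the other INT mice ran from 9.17 to 9.50. Sod1, on its brighter probe, read 10.56 in INT 4, where the other INT mice ran from 10.63 to 10.66, so this gap is small in absolute terms. Hsd17b4 read 8.26 in TOL 11, where the other TOL mice ran from 8.60 to 8.81.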

How the results depend on the processing

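Over the 11 alternatives that kept all mice, Sod2, Cat and Gpx3 kept the higher mean in TOL and Prdx1 the lower, and the dimmer Gpx4 probe kept the higher mean in the 10 that gave it a value. With median scaling no member had p of 0.05 or less (0), and the median was -0.036 over the members and -0.079 over all tested genes. The differences of Sod1 (-0.095), Gpx1 (-0.040), Gpx4 (-0.062) and Prdx3 (-0.033) turned negative. Sod1 was also negative with array weights (-0.0043) and with the mean of its probes (-0.032). The number of members with p of 0.05 or less was 2 with array weights, where Cat joined Sod2. The number of probes called, 129, was 37 with the deposited normalised table, 77 with detection on all 12 arrays and 52 with the methods' t-test after Benjamini-Hochberg. The cause of these changes was not tested.

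Leaving out 1 mouse in turn gave 78 to 152 probes called, 0 to 2 members with p of 0.05 or less, a member median of 0.018 to 0.12, and differences of -0.074 to 0.083 for Sod1, -0.00066 to 0.12 for Gpx1, -0.027 to 0.088 for Gpx4, -0.077 to 0.15 for Prdx3 and -0.070 to 0.015 for the dimmer Cat probe. The count of 1 member fell to 0 without TOL 4, 5 or 9 or INT 5, 9 or 11. It was 2 without TOL 11, with Cat beside Sod2, and 2 without INT 4, with Gpx3 beside Sod2. The number of correlations with lists that passed was 0 to 1, the 1 being Gpx3 with erythrocyte genes without TOL 5. The number of correlated pairs of members was 0 in every alternative run.

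With the mouse number as a replicate block, 124 probes were called and 0 members had p of 0.05 or less (Sod2 had a limma p of 0.0822). Deviations of same-numbered mice correlated between -0.0072 and 0.15, 2 of 6 pairs were over 0.1, and 0 mice correlated best with their own number. These values do not show pairing by number, and they cannot tell whether same-numbered mice were handled together.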
